A study of Drosophila melanogaster with 6 samples.

Results

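Muscle fibres that burn fuel in densely packed mitochondria also carry the enzymes that destroy superoxide and peroxides. The genes described here are 10 of these enzymes or their partners in Drosophila melanogaster: Sod1, Sod2, Cat, Trxr-1, Trx-2, Jafrac1, Prx3, Prx5, Gclc and Gclm. They were chosen by their symbols, and all 10 were found among the 17494 genes of the count table and passed the filter on low counts. RNA came from indirect flight muscles dissected by hand from adult females aged 2 days, with 30 flies pooled per sample, and the experiment asked what the loss of Motif-1-binding protein (M1BP), a transcription factor, does to the muscle. There were 3 Mef2>M1BP RNAi samples, in which Mef2-GAL4 drives a hairpin RNA against M1BP (line #1, the weaker of the study's RNAi lines), and 3 Mef2>WT samples from the cross of Mef2-GAL4 to w1888. Both groups therefore carried the Mef2-GAL4 driver, which is active in muscle and, per the study, also in some neurons, while Mef2 itself is expressed in the fat body too. The study's methods describe independent biological replicates and a separate RNA preparation for each library, while the labels only number the samples of a group, so p-values measure the spread between these preparations.

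Superoxide leaks from the respiratory chain, and superoxide dismutases turn it into hydrogen peroxide, Sod1 in the cytosol with copper and zinc and Sod2 in the mitochondrial matrix with manganese. Hydrogen peroxide is then broken down by catalase (Cat), which needs no partner, or by peroxiredoxins, which are reduced again by thioredoxin, and thioredoxin in turn by thioredoxin reductase with NADPH. Flies lack glutathione reductase, so thioredoxin reductase and thioredoxin also keep glutathione reduced, and glutathione itself is made in a first, rate-limiting step by the catalytic subunit Gclc and the modifier subunit Gclm.

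Normalized counts below are raw counts brought to a common library size by edgeR's TMM factors, and a log2 fold change is that of M1BP RNAi over WT. A gene is said to rise or fall, or to be called, only where the adjusted p was at most 0.001 and the change at least 1.5-fold. The target of the RNAi, M1BP, had 49.5, 50.1 and 52.0 normalized counts in M1BP RNAi samples 1 to 3, against 149, 123 and 119 in WT samples 1 to 3 (log2 fold change −1.36, adjusted p = 0.000336 over all genes tested, edgeR quasi-likelihood test). Libraries held 37908823 to 64768186 counts upon M1BP RNAi and 45132859 to 64871987 in WT. Transcripts of mtDNA took 54.0% to 59.4% of the counts upon M1BP RNAi and 71.5% to 76.3% in WT, which left 17284968 to 27158157 counts on nuclear genes upon M1BP RNAi and 10700748 to 18518305 in WT. Flight muscle markers were present in every sample, none of the 10 being at 0 (2 rose, 2 fell, with 4 higher and 2 lower at an unadjusted p below 0.05, edgeR). Act88F (log2 fold change 1.83) and Mhc (1.63) rose, while Mf (−3.35) and salm (−1.48) fell. Levels of the 10 were summed in counts per kilobase of exon and per 1000000 counts on nuclear genes. The sum was 33250 to 42010 upon M1BP RNAi and 25650 to 26930 in WT, and it does not show these opposite changes. No listed marker of another cell type was at 0 in every sample. Markers of fat body (0 of 5 tested called, 1 higher and 4 lower at an unadjusted p below 0.05, 4 called lower by DESeq2) summed to 356 to 722 upon M1BP RNAi and 1322 to 2366 in WT. Those of neurons (1 of 5 called, lower, with 5 lower at an unadjusted p below 0.05 and 4 called lower by DESeq2) summed to 12.9 to 16.6 upon M1BP RNAi and 36.8 to 53.5 in WT. The neuron marker called was Sh, with a log2 fold change of −3.46, and the other 4 lay between −1.19 and −0.50. Whether the reads of Sh came from neurons or from muscle was not tested. Blood cell markers (0 of 6 called, 4 lower at an unadjusted p below 0.05, 1 called lower by DESeq2) summed to 29.6 to 48.7 upon M1BP RNAi and 42.1 to 52.5 in WT, and trachea and epidermis markers (1 of 5 called lower, 2 by DESeq2) to 9.24 to 20.8 upon M1BP RNAi and 13.9 to 24.2 in WT. Gut and tubule markers (0 of 3 called, 1 lower at an unadjusted p below 0.05, 0 by DESeq2) summed to 509 to 1335 upon M1BP RNAi and 156 to 660 in WT, and tubular muscle markers (0 of 4 called, 1 higher at an unadjusted p below 0.05, 0 by DESeq2) to 335 to 781 upon M1BP RNAi and 192 to 366 in WT. The part of these cells in the values given here was not tested. M1BP RNAi sample 1 also held 105 counts of dhd and 51 of Pxt, genes best known from the ovary, where no other sample had more than 3 of either. Leaving this sample out kept the direction of each of the 10 defence genes. In that fit 1 of the 10 was called, Jafrac1, while Trxr-1, called with all samples, missed the threshold (adjusted p = 0.00132, edgeR).

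In level, the defence genes covered a wide range. The same unit, counts per kilobase of exon and per 1000000 nuclear counts, placed Prx5 (548 ± 33.3), Sod2 (463 ± 28.1) and Jafrac1 (336 ± 48.2) on top upon M1BP RNAi (SD, n = 3), and Gclm last at 8.98 ± 1.37. The counts of Prx5 cannot be told apart from those of the gene CG7215, as described below. Its level, its place and its part in the sums therefore hold for the pair. In WT the order began with Sod2 (751 ± 85.4) and Prx5 (617 ± 94.9), whose samples overlapped, then Cat (192 ± 15.3) and Jafrac1 (69.1 ± 6.94), and ended with Gclm (6.94 ± 0.401). Jafrac1 was in place 3 upon M1BP RNAi and in place 4 in WT, Trxr-1 in place 5 upon M1BP RNAi and 8 in WT, and Sod1 in place 9 upon M1BP RNAi and 6 in WT. The counts of Trxr-1 may include reads of the gene sni, also described below, and its level and place were not corrected for them. Neighbours in the order whose samples overlapped were Trxr-1 with Trx-2 and Gclc with Sod1 upon M1BP RNAi, and in WT also every neighbouring pair along Jafrac1, Trx-2, Sod1, Prx3 and Trxr-1. In this unit, the summed level of the 10 genes was 1717 to 1848 upon M1BP RNAi and 1656 to 1980 in WT, and these ranges overlapped. That overlap holds per nuclear counts only. The sum per counts on all genes, of which mtDNA took less upon M1BP RNAi, was not compared. The make-up of the sum does not depend on this choice, and it differed: Jafrac1 made 18.6 ± 2.42% of it upon M1BP RNAi and 3.75 ± 0.445% in WT, and Sod2 made 25.7 ± 0.701% upon M1BP RNAi and 40.5 ± 2.17% in WT (SD, n = 3, not tested).

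**Figure D1:**
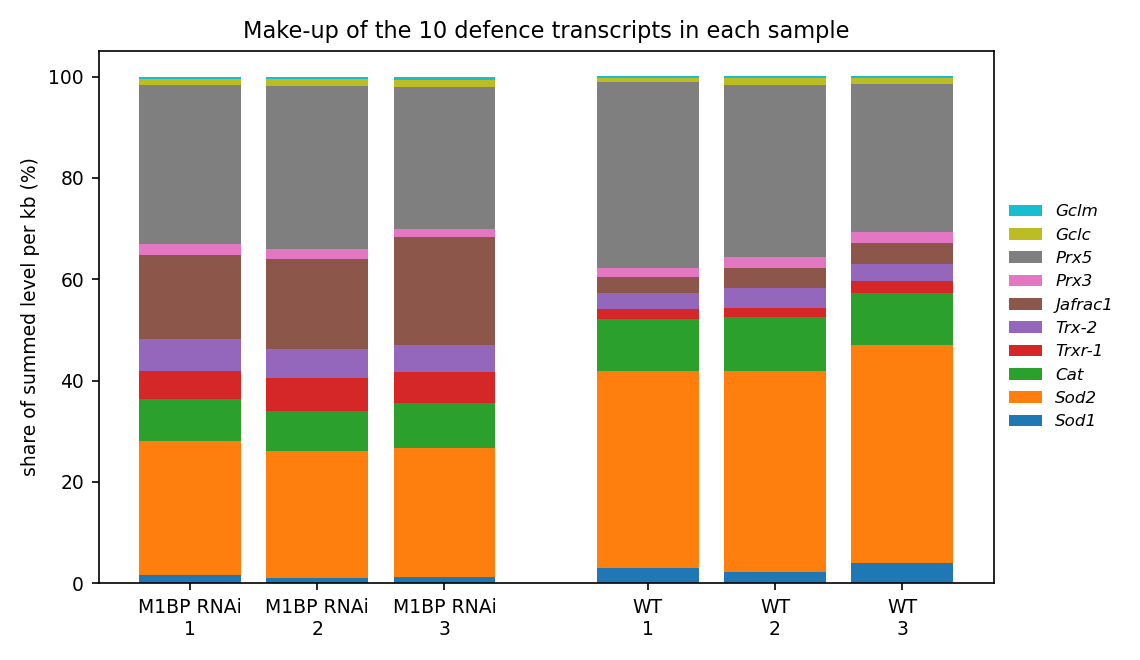
Share of each of the 10 defence genes in their summed level per kilobase (percent, vertical axis) in each M1BP RNAi and each WT sample, as stacked bars. The share of Prx5 holds for Prx5 and CG7215 together. Jafrac1 takes 16.6% to 21.3% in the M1BP RNAi samples and 3.24% to 4.02% in the WT samples, and Sod2 takes 25.2% to 26.5% in the M1BP RNAi samples and 38.9% to 43.0% in the WT samples.

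Among the superoxide dismutases, both genes had less transcript in every M1BP RNAi sample than in any WT sample, but neither passed the threshold. Sod1 (FBgn0003462), the cytosolic enzyme, maps to chromosome 3L (11112281 to 11113740, minus strand, release 6 of the genome, dm6, as are the other positions). It had 399, 226 and 307 normalized counts in M1BP RNAi samples 1 to 3, against 823, 484 and 1027 in WT samples 1 to 3. The highest M1BP RNAi sample, number 1, thus stood below the lowest WT sample, number 2, and the WT samples were spread widely. The means were 311 ± 86.3 upon M1BP RNAi and 778 ± 274 in WT (SD, n = 3), a log2 fold change of −1.33 (standard error 0.30, 95% interval −2.02 to −0.63, adjusted p = 0.00695, edgeR). In bulk RNA of this kind, fewer cells of a type and less RNA per cell cannot be told apart.

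Sod2 (FBgn0010213), the mitochondrial enzyme, maps to chromosome 2R (16772785 to 16773915, minus strand). It had 8932, 7617 and 7827 normalized counts in M1BP RNAi samples, against 14331, 11056 and 14654 in WT samples. The groups did not overlap, and WT sample 2 was the closest to the M1BP RNAi samples, as for Sod1. Sod2 thus stood at −0.72 on the log2 scale (standard error 0.15, 95% interval −1.07 to −0.36, adjusted p = 0.00515, edgeR). DESeq2's Wald test placed both dismutases past the threshold (adjusted p = 2.26e-05 for Sod1 and 1.94e-05 for Sod2). Scaling by total library size, under which the median log2 fold change of all genes was 0.77 and not 0.02, gave 0.04 for Sod2 and −0.58 for Sod1, or −0.73 and −1.35 relative to that median.

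Cat (FBgn0000261), catalase, maps to chromosome 3L (18822604 to 18828188, plus strand). Its normalized counts were 5438, 4670 and 5391 in M1BP RNAi samples, against 7487, 5793 and 6865 in WT samples. The groups stood apart by a small step, since M1BP RNAi sample 1 came within reach of WT sample 2. The log2 fold change of −0.38 (standard error 0.14, 95% interval −0.70 to −0.05) did not pass the test (adjusted p = 0.0506, edgeR), and it was 0.38 with total library size, or −0.39 relative to the median of all genes.

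**Figure D2:**
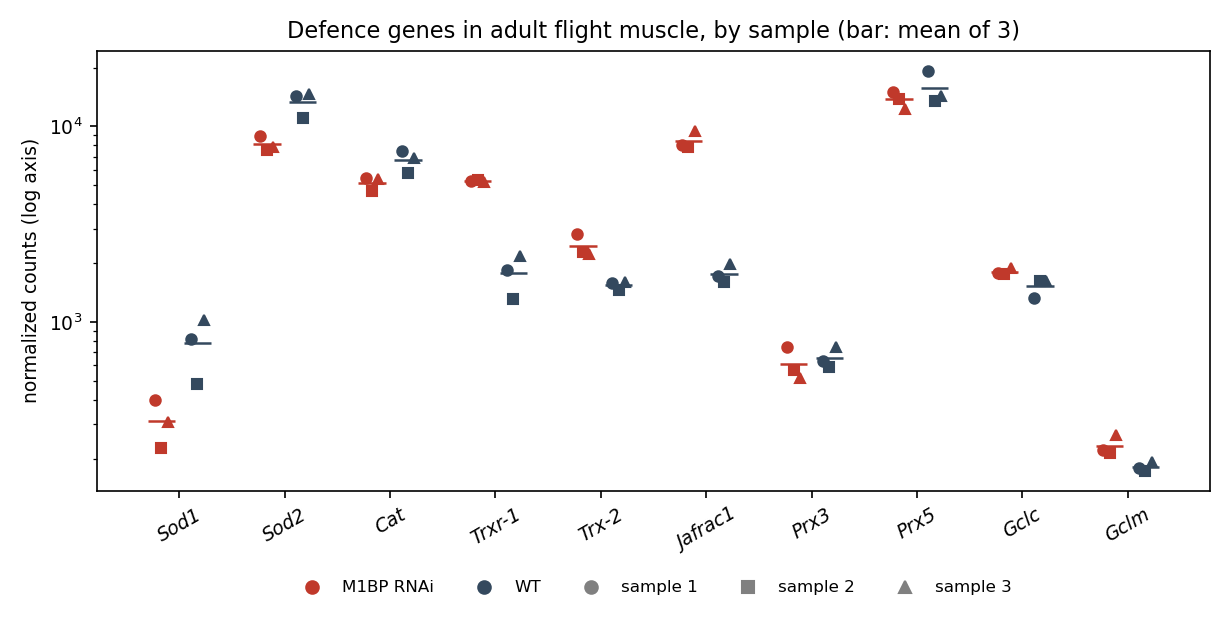
Normalized counts (log axis) of the 10 defence genes in the 3 M1BP RNAi samples (red, left of each pair) and the 3 WT samples (dark, right), with the symbol giving the sample number and the bar the mean. Jafrac1 and Trxr-1 lie well above WT in every M1BP RNAi sample, Sod1 and Sod2 lie below, and only Prx3 and Prx5 overlap between the groups.

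Of the 3 peroxiredoxins, 1 rose and 2 did not pass the threshold. Jafrac1 (FBgn0040309), a cytosolic peroxiredoxin of the type that uses thioredoxin, rose 4.79-fold, the largest change among the 10 genes. It maps to chromosome X (13329824 to 13331994, plus strand), and it had 8081, 7810.2 and 9504 normalized counts in M1BP RNAi samples, against 1718, 1606 and 1974 in WT samples. Every M1BP RNAi sample was far above every WT sample, and the spread within both groups was alike (coefficient of variation 10.8% upon M1BP RNAi and 10.7% in WT). On the log2 scale the rise was 2.26 (standard error 0.14, 95% interval 1.92 to 2.60, adjusted p = 2.34e-05, edgeR), and it passed the threshold with any 1 sample left out, with DESeq2 and with each other scaling tried.

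Prx3 (FBgn0038519), the peroxiredoxin of the mitochondrial matrix, maps to chromosome 3R (17545222 to 17546531, minus strand). It had 743, 567 and 515 normalized counts in M1BP RNAi samples, against 630, 592 and 746 in WT samples, and the groups overlapped. Its log2 fold change was −0.11 with a 95% interval of −0.50 to 0.27 (adjusted p = 0.592, edgeR), which leaves room for changes of modest size in either direction. Without M1BP RNAi sample 3 it was 0.0014, and with total library size 0.63, or −0.14 relative to the median of all genes.

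Prx5 (FBgn0038570), a peroxiredoxin found in mitochondria and in other compartments, maps to chromosome 3R (18165442 to 18167273, minus strand). In the count table the gene CG7215 (FBgn0038571) has the same start, end and strand, and its exons cover 100% of those of Prx5. Both genes had identical counts in all 6 samples, so the reads cannot be assigned to one of them, and the values hold for the pair. They were 15075, 13861 and 12336 normalized counts in M1BP RNAi samples, against 19269, 13507 and 14231 in WT samples. Only WT sample 1 stood above the rest, and the groups overlapped. For the pair the log2 fold change was −0.19 with a 95% interval of −0.58 to 0.21 (adjusted p = 0.378, edgeR), it was 0.0076 without WT sample 1, and it was 0.58 with total library size, or −0.19 relative to the median of all genes.

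In the thioredoxin system, the reductase rose and its substrate pointed the same way without passing the threshold. Trxr-1 (FBgn0020653), the thioredoxin reductase whose alternative transcripts encode cytosolic and mitochondrial forms, maps to chromosome X (8242528 to 8248033, plus strand). Counts per gene do not separate those forms. It had 5255, 5320 and 5204 normalized counts in M1BP RNAi samples, against 1835, 1317 and 2180 in WT samples. The M1BP RNAi samples were nearly equal (coefficient of variation 1.10%), while the WT samples varied (24.4% in WT), and no sample of one group came near the other. The gene rose 2.96-fold (log2 fold change 1.56, standard error 0.19, 95% interval 1.13 to 2.00, adjusted p = 0.000363, edgeR). With 1 sample left out the log2 fold change stayed between 1.40 and 1.74, but the adjusted p ran between 0.00044 and 0.00264 and missed the threshold in 4 of 6 fits, those without M1BP RNAi sample 1, 2 or 3 or without WT sample 1.

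Trxr-1 shares 435 exon bases, 15.6% of its length, with sni on the opposite strand. The gene sni encodes sniffer, a carbonyl reductase, and it had 746, 1108 and 1855 raw counts in M1BP RNAi samples, against 75, 73 and 117 in WT samples. The libraries were made with a kit that keeps strand, but the strand setting of the counting is not given in the sources used here. With all counts of sni taken from those of Trxr-1, the log2 fold change was 1.35 and still passed the threshold (adjusted p = 0.00085, edgeR).

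Trx-2 (FBgn0040070), the cytosolic thioredoxin, maps to chromosome 2L (9613166 to 9616404, plus strand). It had 2819, 2281 and 2241 normalized counts in M1BP RNAi samples, against 1583, 1459 and 1610.35 in WT samples. The groups did not overlap, with M1BP RNAi sample 1 above the other two. The log2 fold change was 0.66 (standard error 0.13, 95% interval 0.35 to 0.97, adjusted p = 0.00412, edgeR), and the gene passed the threshold with DESeq2 (adjusted p = 9.03e-05). With total library size it was 1.41 and passed too, but relative to the median of all genes this is 0.64. Without M1BP RNAi sample 1 it was 0.55, a change of less than 1.5-fold.

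**Figure D3:**
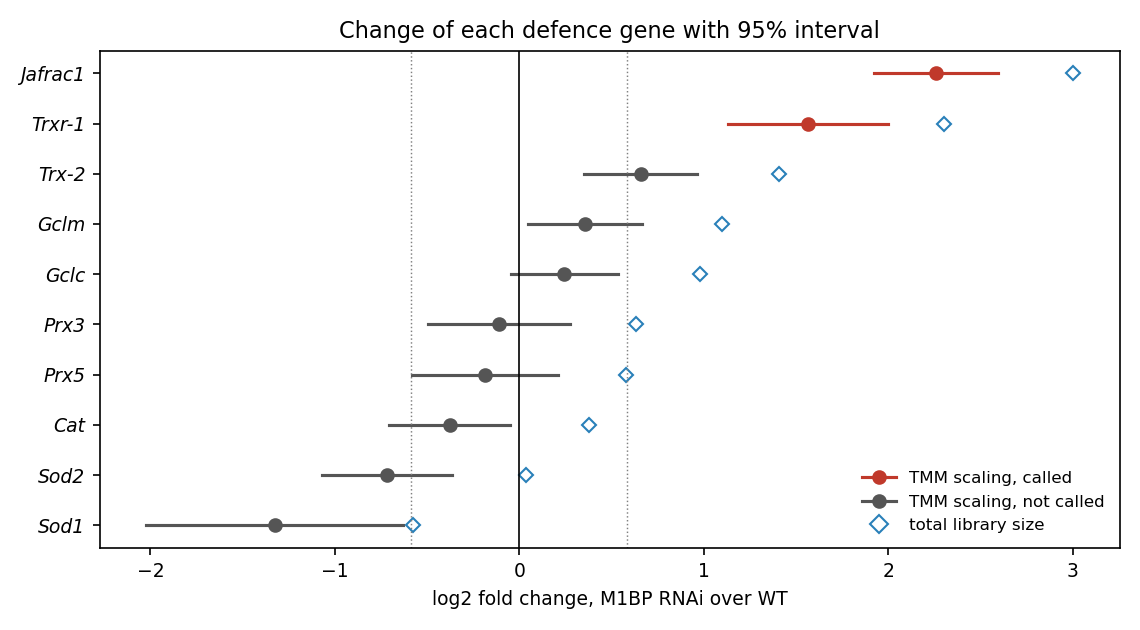
Log2 fold change of M1BP RNAi over WT for each defence gene, with the 95% interval (TMM scaling, filled points, red where the threshold was passed) and the value under total library size (open diamonds). Dotted lines mark 1.5-fold. The open diamonds are shifted to the right for each gene, by about as much as the median of all genes.

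Neither subunit of glutamate-cysteine ligase passed the threshold. Gclc (FBgn0040319, chromosome X, 8102181 to 8116147, minus strand) had 1780.02, 1756 and 1892 normalized counts in M1BP RNAi samples, against 1327, 1623 and 1629 in WT samples. Gclm (FBgn0046114, chromosome 3R, 22685006 to 22686510, minus strand) had 221, 214 and 264 in M1BP RNAi samples, against 180, 174 and 193 in WT samples. For both subunits every M1BP RNAi sample lay above every WT sample, but the distance was small. The log2 fold change was 0.24 for Gclc (95% interval −0.05 to 0.54, adjusted p = 0.132, edgeR) and 0.36 for Gclm (95% interval 0.04 to 0.67, adjusted p = 0.053, edgeR). The upper bounds of these intervals lie below the lower bounds for Jafrac1 and Trxr-1. Gclm was the least counted of the defence genes, with 105 counts in WT sample 1, where counting error alone is 9.76%.

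Counted over the 10 genes, 2 rose (Jafrac1 and Trxr-1), 0 fell and 8 did not pass the threshold in edgeR. Among all 9276 genes tested, 17.5% passed it in edgeR, 11.0% upward and 6.58% downward. At an unadjusted p below 0.05 there were 4 higher and 3 lower defence genes, against 31.3% higher and 29.9% lower of all genes. DESeq2 called 5 of the 10, 3 higher and 2 lower, against 32.0% of all genes, 17.8% higher and 14.2% lower. With an adjusted p of at most 0.05 and 1.5-fold, the threshold was passed by 5 of the 10 genes, Sod1 and Sod2 lower and Trxr-1, Trx-2 and Jafrac1 higher, against 47.1% of all genes. The share of defence genes called in edgeR was thus close to that of all genes at either threshold. The groups did not overlap for 8 of the 10 genes, against 64.2% of all genes. The median log2 fold change was 0.07 over the 10 genes and 0.02 over all genes, and 5 of the 10 were above 0. Within WT, sample 2 had the lowest value for 9 of the 10 genes, and sample 3 the highest for 8. Within M1BP RNAi, sample 2 had the lowest value for 6 of the 10 genes, and sample 1 the highest for 6.

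A ratio of 2 genes within a sample does not depend on how libraries are scaled. Jafrac1 over Prx3, a cytosolic over a mitochondrial peroxiredoxin, was 7.55, 9.57 and 12.8 per kilobase in M1BP RNAi samples, against 1.90, 1.89 and 1.84 in WT samples. The WT ratios were almost equal, and each M1BP RNAi ratio was far above them, with a mean difference of 2.38 on the log2 scale or 5.21-fold. Trxr-1 over Trx-2, the reductase over its substrate, was 0.907, 1.13 and 1.13 in M1BP RNAi samples, against 0.564, 0.439 and 0.658 in WT samples, a difference of 0.94 on the log2 scale and again without overlap. Each of these ratios reached p = 0.1 in the exact two-sided permutation test, the smallest p that 3 against 3 samples allow, and an adjusted p of 0.2 over the 4 ratios. For the ratio with Trxr-1, no counts of sni were taken from those of Trxr-1.

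The other ratios overlapped between the groups. Sod1 over Sod2 was 0.0583, 0.0388 and 0.0513 in M1BP RNAi samples, against 0.0750, 0.0573 and 0.0915 in WT samples (log2 difference −0.59, exact permutation p = 0.2, adjusted 0.267). Transcripts of the cytosolic dismutase were therefore a small fraction of those of the mitochondrial one in every sample. Gclc over Gclm was 2.76, 2.80 and 2.45 in M1BP RNAi samples, against 2.52, 3.19 and 2.89 in WT samples (log2 difference −0.10, exact permutation p = 0.4, adjusted 0.4).

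**Figure D4:**
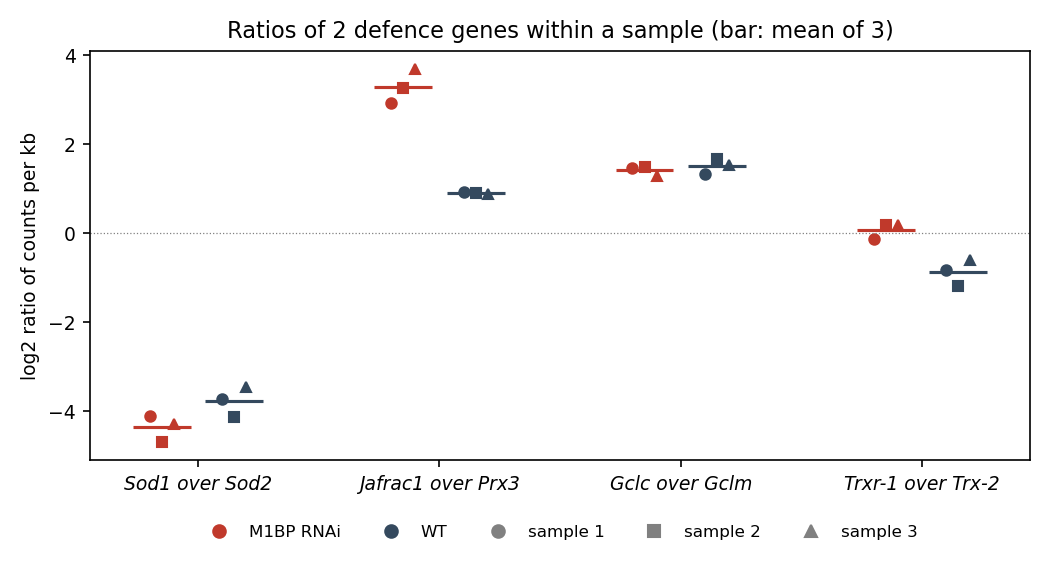
Log2 ratio of the counts per kilobase of 2 defence genes within each sample, M1BP RNAi in red at the left of each pair and WT at the right, with bars at the mean. Jafrac1 over Prx3 and Trxr-1 over Trx-2 are higher in each M1BP RNAi sample than in any WT sample, and the other ratios overlap.

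Around these enzymes, 50 further redox genes were listed by role, of which 36 had enough counts to be tested. Of these 8 rose, 1 fell and 27 did not pass the threshold, which makes 25.0% called against 17.5% of all genes. The lists were drawn up with earlier results of these data known, and with 1 sample left out only 2 to 6 genes were called. Among 11 other superoxide and peroxide enzymes, 3 rose. PHGPx, a glutathione peroxidase-like enzyme that in flies uses thioredoxin, had 16493, 18807 and 19635 normalized counts in M1BP RNAi samples, against 3045, 2428 and 2873 in WT samples (log2 fold change 2.72, adjusted p = 1.22e-05, edgeR). That placed it above Jafrac1 in fold change. Ccs, the chaperone that loads copper into Sod1, had 216, 196 and 218 in M1BP RNAi samples, against 113, 99.5 and 99.3 in WT samples (log2 fold change 1.02, adjusted p = 0.00051, edgeR), while Sod1 itself had the lower counts given above. Prx2540-2, a peroxiredoxin with a single active cysteine, also rose (2.37, adjusted p = 0.000301, edgeR). Its near-identical neighbours Prx2540-1 and CG12896 were at 0.55 and −0.48. Reads from stretches that these genes share cannot be assigned to one of them. The other 8 lay between −0.61 for Jafrac2 and 1.37 for Prx6005, with Sod3, the extracellular dismutase, at −0.61 (adjusted p = 0.0105, edgeR).

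Of the thioredoxin and glutaredoxin list, 1 of 6 tested genes rose. This was Txl, a thioredoxin-like protein whose mammalian relative binds the proteasome, with 3411, 3481 and 4032 normalized counts in M1BP RNAi samples, against 341, 372 and 369 in WT samples (log2 fold change 3.34, adjusted p = 5.65e-06, edgeR). Its fold change was above that of each of the 10 defence genes. The other 5 ranged between −0.08 for CG8993, a thioredoxin-like gene, and 0.59 for CG6762. Trxr-2, the second thioredoxin reductase gene, had 0 counts in each of the 6 samples, which allows up to 3 counts a library, so Trxr-1 was the only reductase of this kind detected at this depth. The glutathione supply list had 0 of 4 tested genes called, between −0.68 for CG4829 and 0.81 for Gss2 on the log2 scale, by edgeR as by DESeq2 (unadjusted p below 0.05 for 1 higher and 2 lower).

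Of 5 sources of NADPH, 1 rose, and DESeq2 called 3, of which 1 was lower. Men, the cytosolic malic enzyme, had 16784, 24639 and 28607 normalized counts in M1BP RNAi samples, against 7814, 6951 and 7154 in WT samples (log2 fold change 1.68, adjusted p = 0.000388, edgeR). Its mitochondrial relative Men-b was at −0.80 (adjusted p = 0.00344, edgeR), the NADP-dependent isocitrate dehydrogenase Idh at 0.88 (adjusted p = 0.00911, edgeR, groups not overlapping), and the pentose phosphate pathway enzymes Zw and Pgd were at 0.05 and −0.14. By edgeR 0 of the 4 regulators passed, with 3 at an unadjusted p below 0.05 and 1 called by DESeq2. Among them cnc, the fly Nrf2 that activates detoxification genes, was at 0.12 (adjusted p = 0.384, edgeR), its inhibitor Keap1 at 0.89, its partner maf-S at −0.57 and the forkhead factor foxo at 0.76 (adjusted p = 0.00106, edgeR, just outside the threshold).

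In the list of repair and other defence genes, 3 of 6 rose and 1 fell. MtnA, a metallothionein that binds copper, had 7974, 5835 and 6867 normalized counts in M1BP RNAi samples, against 211, 113 and 553 in WT samples (log2 fold change 4.54, standard error 0.56, adjusted p = 0.000408, edgeR). Fer1HCH and Fer2LCH, the heavy and light chains of the iron store ferritin, rose by 1.78 each (adjusted p = 0.000352 and 0.000398, edgeR). MsrA, which repairs oxidized methionine, was the gene that fell, with 508, 448 and 424 normalized counts in M1BP RNAi samples, against 1054, 958 and 1001 in WT samples (log2 fold change −1.13, adjusted p = 0.000181, edgeR). SelR, the repair enzyme for the other form of oxidized methionine, was at −0.56 and did not pass. Of the 9 genes called in these lists, Txl and PHGPx passed in each of the 6 fits with 1 sample left out, MtnA and MsrA in 2, Prx2540-2, Men, Fer1HCH and Fer2LCH in 1, and Ccs in 0. MsrA was at −0.38 and not called with total library size, where the median of all genes was 0.77. The 8 that rose were called there too.

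**Figure D5:**
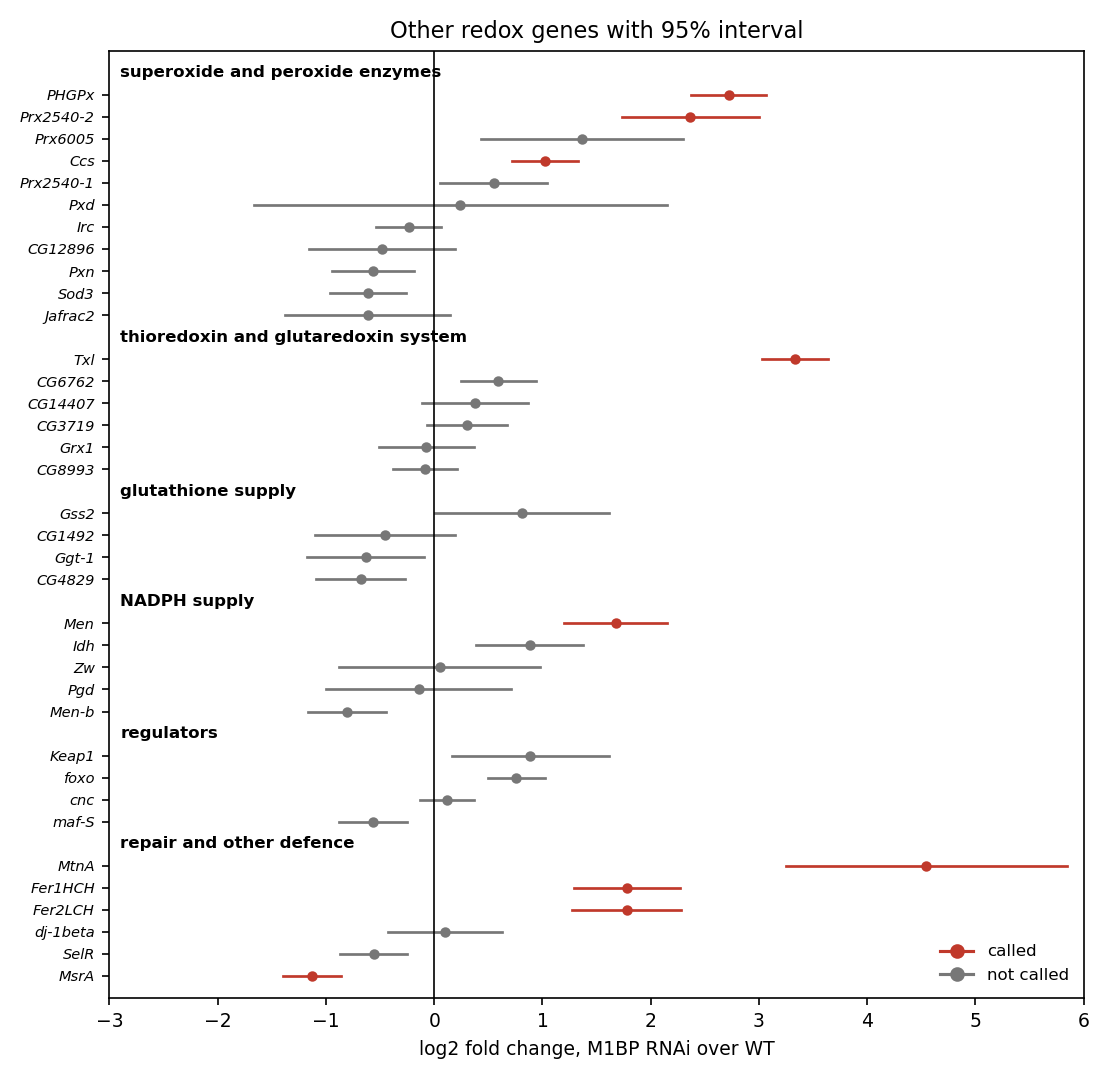
Log2 fold change of M1BP RNAi over WT with its 95% interval for the 36 tested redox genes outside the 10 defence genes, grouped by role, red where the threshold was passed. MtnA, Txl and PHGPx lie farthest to the right, and MsrA is the only red point left of 0.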

How the data were processed

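The authors deposited raw counts of reads per gene, without normalization, for 3 M1BP RNAi and 3 WT samples. The submitters' processing notes name dm6, bcl2fastq 2.17.1.14, Subread, featureCounts and DESeq2 1.3.0, and the strand setting is not given in the sources used here. Gene symbols, by which the 10 genes were found, were joined by identifier from the authors' table of their own comparison, whose values (mean, log2 fold change, its error, p-value and adjusted p-value) were not used. No per-sample column was left out. Positions are those of the count table.

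Counts were tested with edgeR 4.0.16 in R 4.3.3 (glmQLFit and glmQLFTest, TMM, filterByExpr, 9276 genes, Benjamini-Hochberg adjustment over all of them). Calls needed an adjusted p of 0.001 or less and a change of 1.5-fold or more. To give normalized counts, each library was scaled to the average effective size. Standard errors were derived from the F statistic. Fits were first run on simulated data with equal scatter for every gene and no difference in mtDNA share built in between groups. Such data cannot test how the libraries were scaled. DESeq2 1.42.0, other scalings, thresholds, no filter, a replicate block and leaving out each sample were the alternatives. Python 3.11.15 with scipy 1.17.1 gave the exact permutation tests, and figures were drawn with matplotlib 3.10.9.

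The 10 genes and the gene lists were chosen with earlier results of these data known. Named are the 10 genes, M1BP and the listed redox genes past the threshold. Others named, such as sni, CG7215, dhd, Prx2540-1, foxo and Men-b, were chosen after their values were seen. CG6461 was not matched in the count table. Raw counts of the 10 genes ran between 105 and 20183 per sample. A count of 0 allows up to 3 counts, a share of 4.62e-06% to 7.91e-06% of a library, which covers counting error only. Same-numbered samples were not treated as pairs.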

Additional observations from a re-analysis of the deposited data

How the results depend on the processing

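Over all genes, 1626 were called, 1016 higher and 610 lower. The count was 2972 with DESeq2 (1653 higher, 1319 lower), 2713 with total library size (2576 higher, 137 lower), 4373 at an adjusted p of at most 0.05, and 602 to 1278 with 1 sample left out. Of the 10 defence genes 2 were called, against 5 with DESeq2, 5 at an adjusted p of at most 0.05 and 1 to 2 with 1 sample left out. Of the other redox genes 9 were called, against 18 at an adjusted p of at most 0.05 and 2 to 6 with 1 sample left out. Sod1 (−1.34 with DESeq2, −1.33 at 0.05), Sod2 (−0.73 and −0.72) and Trx-2 (0.64 and 0.66, and 1.41 with total library size) passed only there. Total library size turned the direction of Sod2 (0.036), Cat (0.38), Prx3 (0.63) and Prx5 (0.58), and by construction it moves every gene by one factor per library. With 1 sample left out, log2 fold changes ran between −1.56 and −1.06 for Sod1, −0.82 and −0.64 for Sod2, −0.46 and −0.27 for Cat, 1.40 and 1.74 for Trxr-1, 0.55 and 0.72 for Trx-2, 2.17 and 2.35 for Jafrac1, −0.28 and 0.0014 for Prx3, −0.28 and 0.0076 for Prx5, 0.17 and 0.30 for Gclc, and 0.26 and 0.42 for Gclm. The cause of these differences was not tested. Of 160 values of the 10 genes under alternatives, 142 kept their direction and their side of the threshold. Part of these could hardly do otherwise, so the share is no measure of stability. The changed thresholds reuse the log2 fold changes of the main fit, and without the minimum fold the same 1626 genes were called. Taking off the counts of sni left the counts of the genes other than Trxr-1 as they were. Removing mtDNA genes, using RLE, dropping the filter or the minimum fold, and a scaling to flight muscle markers chosen after seeing the data changed no call among the 10 genes.

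Samples that share a number deviated from their group means with correlations of 0.05, 0.18 and −0.01. Between samples of unlike number the correlations ran from −0.34 to 0.28. With 3 samples in each group, such values cannot decide whether the numbers mark pairs. The replicate block called 790 of all genes (544 higher, 246 lower), 1 of the 10 defence genes and 4 of the other redox genes, and Trxr-1 was at 1.59 (adjusted p = 0.00129, edgeR). Sod1 was at −1.30 with a standard error of 0.18, against 0.30 without the block, and was still not called (adjusted p = 0.00204, edgeR).

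The 10 genes had 105 to 20183 counts a sample, and counting error was at most 9.76%. The search of promoters and proteins planned for the 10 genes was not run. Prx5 cannot be read apart from CG7215, nor Trxr-1 wholly from sni.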
